A study of Mus musculus with 27 samples.

Results

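The comparison described here asks what interferon gamma (IFN-gamma) adds when glia are already exposed to lipopolysaccharide (LPS). It covers 6 of the 27 RNA sequencing libraries of the series, chosen by their treatment labels: the 3 libraries given LPS+IFN-gamma and the 3 given LPS alone, all from experiment 1. The cultures were mixed glia from the cortex of C57BL/6 mice at postnatal day 3 to 6, grown for 14 days in vitro. Both groups received 100 ng/mL LPS for 24 h, and the LPS+IFN-gamma group also received 20 ng/mL IFN-gamma. Experiment 1 further held 3 libraries of LPS+IFN-gamma+bryostatin and 3 of LPS+bryostatin (50 nM bryostatin), in which the same IFN-gamma step was measured again, and 3 untreated libraries, given as a background. All groups share the strain, the age and the kind of culture, and no group received IFN-gamma without LPS, so its effect alone was not measured. The labels do not say whether replicates came from separate cultures or animals, so p-values reflect how far these libraries vary, in part perhaps for technical reasons.

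LPS, a component of the outer membrane of Gram-negative bacteria, is sensed by Toll-like receptor 4 and drives NF-kB and, through interferon beta, the interferon-stimulated genes. IFN-gamma, made mainly by T cells and natural killer cells, binds a receptor of the chains Ifngr1 and Ifngr2, whose kinases Jak1 and Jak2 start the signal. In the nucleus it acts through the gamma-activated site (GAS) of promoters and raises Irf1 and Ciita, which in turn drive guanylate-binding proteins, immunity-related GTPases and antigen presentation. In microglia and macrophages, the combination of both signals is the standard stimulus for nitric oxide production.

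Adding IFN-gamma to LPS raised all 11 guanylate-binding proteins and all 11 immunity-related GTPases tested, 13 of 15 genes of MHC class II, 24 of 27 antioxidant genes and 23 of 25 genes of the amino acid response. Of 27 genes of astrocyte identity, 18 fell and 0 rose. Of 54532 annotated genes, 16073 had enough counts to test, and 5791 of them (36% of genes tested) were called at an adjusted p under 0.05 in edgeR's quasi-likelihood test. Of the calls, 3094 rose (19.2%) and 2697 fell (16.8%). Changes over 2-fold were called for 1805 genes (11.2%), of which 829 rose (5.16%) and 976 fell (6.07%). The large changes were mostly upward: 95 genes rose and 61 fell over 8-fold, and 43 rose and 15 fell over 16-fold. The 3 libraries of one group lay wholly above or below the 3 of the other for 8406 genes (52.3%).

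The libraries held 17383754 to 17866250 counts with LPS+IFN-gamma and 17230058 to 20002626 counts with LPS. Across genes, log2 levels correlated at 0.9898 to 0.9955 among LPS+IFN-gamma libraries, at 0.9961 to 0.9965 among LPS libraries and at 0.9643 to 0.9704 between the groups. The TMM scaling factors did not overlap, at 0.8895 to 0.9031 with LPS+IFN-gamma and 1.054 to 1.06 with LPS. Scaled by library totals only, the median of all genes shifted by -0.24 on the log2 scale and 1745 genes rose while 5666 fell; where this totals-only scaling moves a list's count in either direction by over 1.5 times, or the share of its calls that are higher by over 10 percentage points, its counts (higher and lower) follow. Levels below are CPM, the usual depth-scaled count unit, after TMM scaling, and means are given ± SD over 3 libraries. The untreated library labelled replicate 1 correlated at 0.9735 and 0.9744 with the other two untreated libraries, which correlated at 0.9957, and it enters the shared estimate of spread. Without it, 7026 genes were called.

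**Figure D1:**
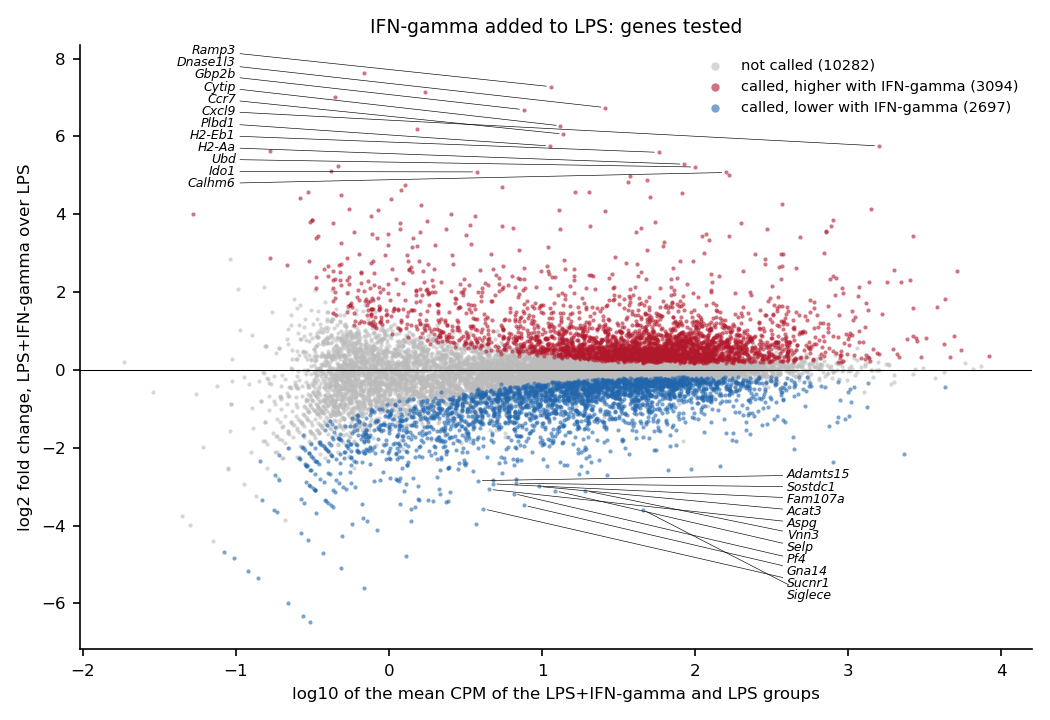
Each point is 1 of the 16073 genes tested, by its mean level in both groups (horizontal, log10 CPM) and its log2 fold change of LPS+IFN-gamma over LPS (vertical). Red points were called higher, blue points lower and grey points not called; the 12 highest and 11 of the 12 lowest called protein-coding genes with at least 5 CPM are named, and Cxcl9 stands alone among them at a high level.

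The 12 largest increases among protein-coding genes at 5 CPM or more were Ramp3, Dnase1l3, Gbp2b, Cytip, Ccr7, Cxcl9, Plbd1, H2-Eb1, H2-Aa, Ubd, Ido1 and Calhm6, with log2 fold changes of 5.07 to 7.28. Ramp3, a protein that modifies the receptors for calcitonin-family peptides, had 27.3, 18.7 and 21.9 CPM in the LPS+IFN-gamma libraries, against 0.0551, 0.285 and 0.0546 CPM in the LPS libraries. These LPS values rest on 8 counts over the 3 libraries, so Ramp3 was near the limit of detection without IFN-gamma. Dnase1l3, a secreted nuclease that digests DNA in chromatin, averaged 51.2 ± 2.30 CPM with LPS+IFN-gamma and 0.480 ± 0.447 CPM with LPS (log2 fold change 6.74 ± 0.29, adjusted p = 1.05e-10). Cytip, an adaptor that limits leukocyte adhesion, averaged 26.1 ± 2.33 CPM with LPS+IFN-gamma and 0.330 ± 0.00237 CPM with LPS (6.27 ± 0.22). Ubd, the ubiquitin-like modifier also called FAT10, averaged 194 ± 20.5 CPM with LPS+IFN-gamma and 5.24 ± 0.497 CPM with LPS (5.21 ± 0.19). The channel family member Calhm6 averaged 309 ± 33.1 CPM with LPS+IFN-gamma and 9.17 ± 0.498 CPM with LPS (5.07 ± 0.14). In all 12 genes every LPS+IFN-gamma library lay above every LPS library, which the choice of these genes required.

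Of the 12 largest decreases at 5 CPM or more, 11 are named here: Siglece, Sucnr1, Gna14, Pf4, Selp, Vnn3, Aspg, Acat3, Fam107a, Sostdc1 and Adamts15, with log2 fold changes of -3.59 to -2.85. Siglece, an inhibitory receptor for sialic acids on myeloid cells, had 6.13, 7.99 and 6.76 CPM in the LPS+IFN-gamma libraries, against 88.4, 80.6 and 83.3 CPM in the LPS libraries (log2 fold change -3.59 ± 0.11, adjusted p = 2.9e-12). The groups did not overlap in any of these genes, again by the choice of these genes. In bulk RNA, fewer cells of a type and less RNA per cell cannot be told apart, here and for each cell type gene below. Sucnr1, the receptor for extracellular succinate, averaged 0.639 ± 0.302 CPM with LPS+IFN-gamma and 7.64 ± 0.205 CPM with LPS (-3.57 ± 0.29). Pf4, the chemokine platelet factor 4, averaged 1.29 ± 0.490 CPM with LPS+IFN-gamma and 11.8 ± 1.84 CPM with LPS (-3.18 ± 0.31). Selp, the adhesion molecule P-selectin, averaged 2.52 ± 0.757 CPM with LPS+IFN-gamma and 21.8 ± 2.19 CPM with LPS (-3.11 ± 0.28). Vnn3, a pantetheinase, averaged 3.98 ± 0.470 CPM with LPS+IFN-gamma and 34.4 ± 3.15 CPM with LPS (-3.11 ± 0.21). Sostdc1, an antagonist of BMP and Wnt ligands, averaged 1.57 ± 0.301 CPM with LPS+IFN-gamma and 11.9 ± 0.729 CPM with LPS (-2.92 ± 0.33).

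In the signalling pathway itself, transcription factors and the feedback inhibitor Socs1 rose, and the receptor chain Ifngr1 fell. Ifng itself had 0 counts in both groups. Irf1, a transcription factor early in the response, had 1391, 1222 and 1363 CPM in the LPS+IFN-gamma libraries, against 108, 119.7 and 109.9 CPM in the LPS libraries, with 23.3 ± 2.98 CPM in untreated glia. All 3 values with IFN-gamma lay above those without, and the log2 fold change was 3.56 ± 0.11 (adjusted p = 2.04e-12). Batf2, a partner of Irf1 on promoters, averaged 76 ± 2.71 CPM with LPS+IFN-gamma and 6.52 ± 1.46 CPM with LPS (3.54 ± 0.15). Socs1, which shuts off the Jak kinases, averaged 224 ± 35.9 CPM with LPS+IFN-gamma and 22.1 ± 1.41 CPM with LPS (3.34 ± 0.13). Irf8, a transcription factor of myeloid cells, averaged 202 ± 13.4 CPM with LPS+IFN-gamma and 25 ± 2.90 CPM with LPS (3.02 ± 0.10). Irf8 stood at 35.9 ± 3.10 CPM in untreated glia, above its level with LPS and below that with LPS+IFN-gamma. The ligand-binding receptor chain Ifngr1 fell, at 76.6 ± 3.18 CPM with LPS+IFN-gamma and 99.5 ± 1.57 CPM with LPS (-0.38 ± 0.09, adjusted p = 0.00265), while Ifngr2, at 115 ± 7.21 CPM with LPS+IFN-gamma and 103 ± 1.58 CPM with LPS, did not pass the test (0.15 ± 0.07, adjusted p = 0.117). In the whole signalling list of 20 genes tested, 11 rose, 3 fell and 6 missed the threshold (median log2 fold change 0.45; 8 and 5 with totals-only scaling). Over all genes tested, 19.2% rose and 16.8% fell, with a median of -0.01.

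All 11 guanylate-binding proteins and all 11 immunity-related GTPases rose. These GTPases are recruited to vacuoles that hold bacteria or parasites and break them open. Gbp2 had 9084, 8749 and 8525 CPM in the LPS+IFN-gamma libraries, against 1432, 1603 and 1476 CPM in the LPS libraries, and 58.4 ± 26.6 CPM in untreated glia. Its log2 fold change was 2.55 ± 0.26 (adjusted p = 3.58e-06), and no value of one group reached the other. Per length, by the deposited FPKM, Gbp2 stood at 3580 ± 97.7 FPKM with LPS+IFN-gamma and 613 ± 35 FPKM with LPS, which placed it at rank 4 with LPS+IFN-gamma and rank 37 with LPS among the 14293 protein-coding genes tested. Igtp, the GTPase Irgm3, had 5577, 4564 and 4419 CPM in the LPS+IFN-gamma libraries, against 434, 481 and 422 CPM in the LPS libraries, a log2 fold change of 3.44 ± 0.17 (adjusted p = 5.69e-10), and moved to rank 11 with LPS+IFN-gamma, against rank 152 with LPS. The median log2 fold change was 2.55 for the guanylate-binding proteins and 2.35 for the immunity-related GTPases, against -0.01 over all genes tested. With totals-only scaling, 10 of each family rose and 0 fell. The range was wide: Gbp2b had 6.69 ± 0.31, Gbp4 3.84 ± 0.29, Gbp10 3.54 ± 0.24, Gbp5 2.25 ± 0.28, Gbp7 1.61 ± 0.25 and Gbp9 1.23 ± 0.23 on the log2 scale. Among the immunity-related GTPases, Tgtp1 had 3.70 ± 0.17, Irgm2 2.35 ± 0.15, Iigp1 2.26 ± 0.28 and Irgm1 1.90 ± 0.10. Members of both families have near-identical copies, such as Tgtp1 and Tgtp2 or Gbp2 and Gbp2b, and how reads that match several genes were counted is not given in the sources used here, so values of single members are uncertain.

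The promoters of 4 genes that rose are printed because they hold letters that match elements through which the pathway is known to act. Each is 250 bases before to 50 bases after the start of transcription, from RefSeq on build GRCm38.p6, written 5′ to 3′ along the gene, with capitals for the letters TTCNNNGAA (the GAS core), GAAA followed after any 2 bases by GAAA (the core of the interferon-stimulated response element, ISRE) and ATTGG (the core of the Y box of class II promoters), searched on both strands. The Irf1 window (chr11:53769764-53770063, plus strand) is 1 of 2 in the table, the Gbp5 window is chr3:142496684-142496983, plus strand, that of Igtp chr11:58199306-58199605, plus strand, and that of H2-Eb1 chr17:34305617-34305916, plus strand.
Irf1: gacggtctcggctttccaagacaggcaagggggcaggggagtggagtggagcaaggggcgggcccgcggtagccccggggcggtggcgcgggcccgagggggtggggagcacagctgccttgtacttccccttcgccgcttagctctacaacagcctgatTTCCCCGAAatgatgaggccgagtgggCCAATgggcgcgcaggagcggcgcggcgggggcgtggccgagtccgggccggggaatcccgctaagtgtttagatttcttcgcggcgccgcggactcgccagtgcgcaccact
Gbp5: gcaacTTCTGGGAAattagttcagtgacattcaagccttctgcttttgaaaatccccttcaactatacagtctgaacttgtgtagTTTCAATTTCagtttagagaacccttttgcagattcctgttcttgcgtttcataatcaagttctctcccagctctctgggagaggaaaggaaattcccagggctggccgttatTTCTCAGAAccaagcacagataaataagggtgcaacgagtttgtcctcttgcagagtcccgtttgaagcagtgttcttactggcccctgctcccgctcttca
Igtp: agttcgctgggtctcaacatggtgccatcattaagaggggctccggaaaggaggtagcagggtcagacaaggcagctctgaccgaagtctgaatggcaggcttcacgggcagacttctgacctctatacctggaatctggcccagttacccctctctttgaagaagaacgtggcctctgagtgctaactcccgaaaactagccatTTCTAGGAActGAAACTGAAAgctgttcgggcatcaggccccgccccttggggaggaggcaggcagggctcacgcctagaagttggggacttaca
H2-Eb1: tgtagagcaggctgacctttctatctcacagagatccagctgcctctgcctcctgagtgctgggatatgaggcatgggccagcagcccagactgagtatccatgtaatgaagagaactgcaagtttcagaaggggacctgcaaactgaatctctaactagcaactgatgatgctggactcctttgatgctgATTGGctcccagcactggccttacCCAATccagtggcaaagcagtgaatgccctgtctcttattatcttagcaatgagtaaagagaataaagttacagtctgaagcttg
In the Irf1 window a GAS match begins 90 bases before the start, and a Y box match follows 63 bases before it, on the other strand. The Gbp5 window holds GAS matches 245 and 52 bases before the start and an ISRE match, on the other strand, 165 bases before it. In Igtp a GAS match 45 bases and an ISRE match 34 bases before the start lie side by side without overlap. H2-Eb1 has Y box matches 59 and 35 bases before the start, on opposite strands, and neither of the interferon elements in this window. Of all 32851 windows in the RefSeq table, 8.3% held a GAS match, 3.44% an ISRE match and 37.4% a Y box match. Among the 14337 windows of protein-coding genes tested, the shares were 6.8% for GAS, 3.22% for ISRE and 37.4% for the Y box. Windows of protein-coding genes that rose over 8-fold held GAS in 12 of 63 (19%) and ISRE in 10 of 63 (15.9%). For genes that rose over 2-fold the shares were 9.04% for GAS and 7% for ISRE of 686 windows, and for genes that fell over 2-fold 7.95% and 3.26% of 767 windows. Among 8 windows of immunity-related GTPases, 5 held GAS and 6 ISRE, among 6 windows of guanylate-binding proteins (from 5 of 11 genes), 2 held GAS and 5 ISRE, and among 13 windows of class II genes, 10 held a Y box. The Y box was also held by 13 of 19 windows of genes of class I and peptide loading. Its share was 39.7% for genes that rose over 8-fold, 34.8% for those that rose over 2-fold and 35.2% for those that fell over 2-fold. These matches describe letters only, and no binding was measured.

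Genes of MHC class II serve to present peptides to CD4 T cells, and 13 of 15 tested rose with IFN-gamma. The summed level of the list was 1823 to 2284 CPM with LPS+IFN-gamma and 484 to 508 CPM with LPS. The genes named here were among its low members with LPS alone. H2-Ab1, the beta chain of I-A, had 371, 289 and 306 CPM in the LPS+IFN-gamma libraries, against 10.8, 10.3 and 8.85 CPM in the LPS libraries, and 1.54 ± 0.701 CPM in untreated glia. The groups were far apart, with a log2 fold change of 5.01 ± 0.18 (adjusted p = 1.51e-11). Its partner H2-Aa averaged 166 ± 22.3 CPM with LPS+IFN-gamma and 4.26 ± 1.0 CPM with LPS (5.29 ± 0.21). H2-Eb1, the beta chain of I-E, averaged 113 ± 17.4 CPM with LPS+IFN-gamma and 2.33 ± 0.372 CPM with LPS (5.59 ± 0.17). Cd74, the invariant chain that escorts class II molecules, averaged 708 ± 122 CPM with LPS+IFN-gamma and 37 ± 2.88 CPM with LPS (4.26 ± 0.14). Ciita, the master regulator of these genes, had 67.1, 77.5 and 65.9 CPM in the LPS+IFN-gamma libraries, against 1.98, 2.52 and 2.90 CPM in the LPS libraries, a log2 fold change of 4.83 ± 0.17 (adjusted p = 1.03e-11). In the class II list of 15 genes tested, 13 rose, 0 fell and 2 missed the threshold (median log2 fold change 3.40; 11 and 2 with totals-only scaling).

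Of genes of class I presentation, most of them well above detection with LPS alone, 20 of 21 rose with IFN-gamma. Nlrc5, the class I counterpart of Ciita, had 183, 232 and 228 CPM in the LPS+IFN-gamma libraries, against 44, 45.4 and 44.5 CPM in the LPS libraries (log2 fold change 2.26 ± 0.12, adjusted p = 1.03e-09). Tapbpl, a peptide editor, averaged 290.2 ± 9.57 CPM with LPS+IFN-gamma and 73.2 ± 3.21 CPM with LPS (1.99 ± 0.07). The immunoproteasome subunit Psmb9 averaged 365 ± 41.7 CPM with LPS+IFN-gamma and 96.2 ± 8.19 CPM with LPS (1.92 ± 0.13). The peptide transporter Tap1 averaged 926 ± 78.7 CPM with LPS+IFN-gamma and 276 ± 11.6 CPM with LPS (1.74 ± 0.11). The heavy chain H2-K1 averaged 5151 ± 319 CPM with LPS+IFN-gamma and 3263 ± 80.3 CPM with LPS, a log2 fold change of 0.66 ± 0.10 (adjusted p = 6.32e-05), and stood at 160.3 ± 22.7 CPM in untreated glia. In the class I list of 21 genes tested, 20 rose, 0 fell and 1 missed the threshold (median log2 fold change 1.10).

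**Figure D2:**
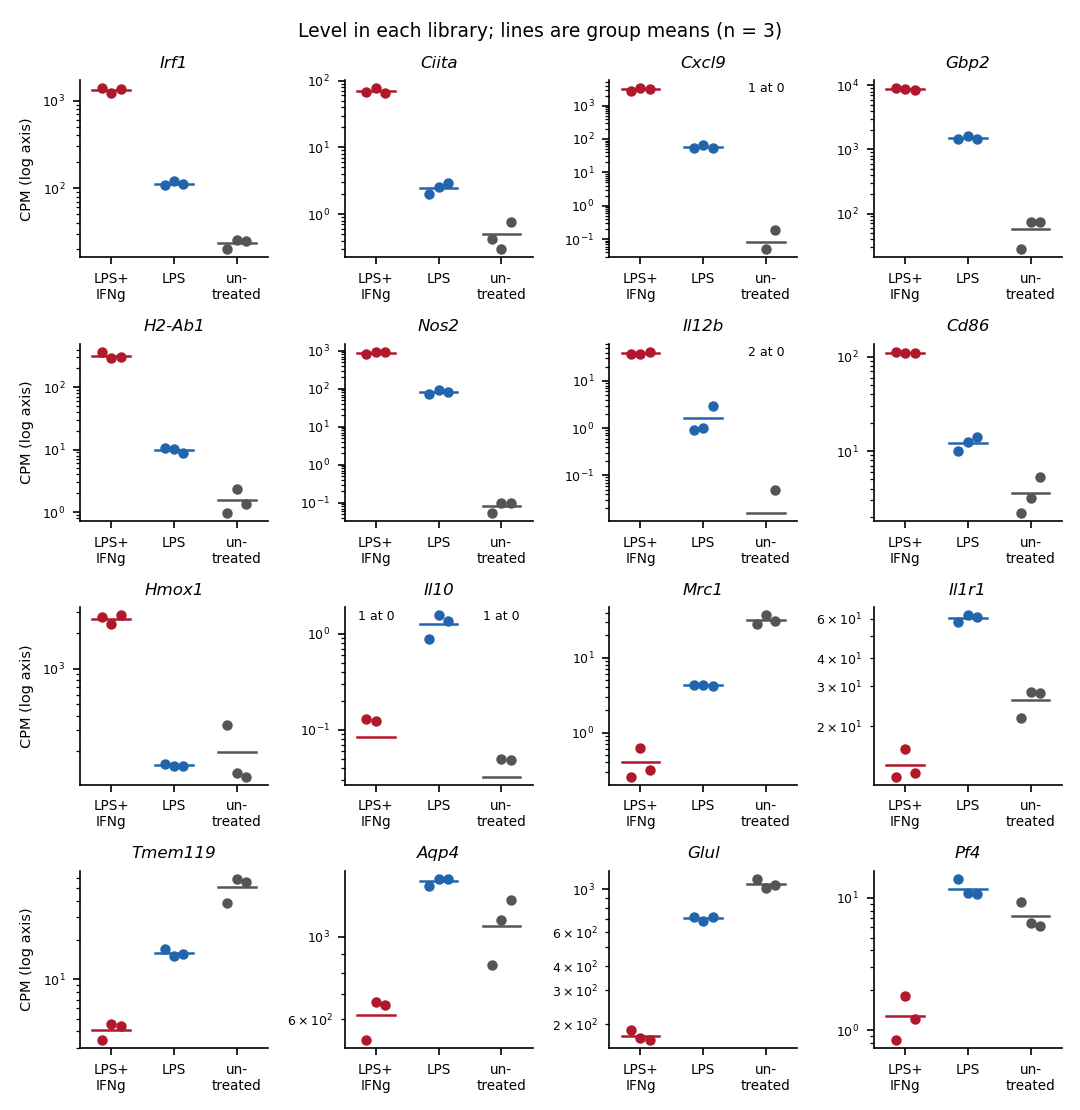
Each panel gives 1 gene in the 3 libraries of LPS+IFN-gamma (red), LPS (blue) and untreated glia (grey), in CPM on a log axis, with lines at group means and libraries at 0 counted in words. Irf1, Ciita, Cxcl9, Gbp2, H2-Ab1, Nos2, Il12b, Cd86 and Hmox1 are higher with LPS+IFN-gamma than with LPS in every library, and Il10, Mrc1, Il1r1, Tmem119, Aqp4, Glul and Pf4 are lower in every library.

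Antiviral genes of the type I interferon response, which LPS also induces, rose in part. Of 34 tested antiviral genes, 16 rose, 0 fell and 18 were not called, with a median log2 fold change of 0.40 (10 and 1 with totals-only scaling). Without the untreated library labelled replicate 1, 23 of these genes rose and 0 fell. The largest steps were those of Ifit2 (2.56 ± 0.17), the nucleotide hydrolase Samhd1 (2.33 ± 0.08), the radical enzyme Rsad2 (1.99 ± 0.25) and its neighbour Cmpk2 (1.58 ± 0.19). Ifit2 had 2926, 3814 and 3508 CPM in the LPS+IFN-gamma libraries, against 552, 649 and 531 CPM in the LPS libraries, and 81.2 ± 17.1 CPM in untreated glia. All 9 interferon-inducible PARP-family genes rose, led by Parp14 at 750.4 ± 112 CPM with LPS+IFN-gamma and 289 ± 13.8 CPM with LPS (1.38 ± 0.14). Of the PYHIN family of DNA sensors, 9 of 10 tested rose, led by Ifi205 at 1.28 ± 0.13, with a family median of 0.68. Members of this family also have close copies. The Schlafen genes were divided: Slfn2 rose, at 298 ± 16.8 CPM with LPS+IFN-gamma and 170.1 ± 2.67 CPM with LPS (0.81 ± 0.08), while Slfn4 fell, at 5.90 ± 2.5 CPM with LPS+IFN-gamma and 21.4 ± 2.78 CPM with LPS (-1.85 ± 0.24), and Slfn1 fell, at 23 ± 0.506 CPM with LPS+IFN-gamma and 37.7 ± 4.30 CPM with LPS (-0.71 ± 0.13). Of 8 Schlafen genes tested, 3 rose and 2 fell (1 and 2 with totals-only scaling).

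Among chemokines, the ligands of Cxcr3 rose, and the others rose and fell in equal number. All 3 ligands of Cxcr3, which attract activated T cells, rose. Cxcl9 had 2818, 3355 and 3150 CPM in the LPS+IFN-gamma libraries, against 52.1, 67.5 and 52.6 CPM in the LPS libraries, and 0.0801 ± 0.0990 CPM in untreated glia. With IFN-gamma its level was higher in each library than in any LPS library (log2 fold change 5.76 ± 0.20, adjusted p = 1.2e-11). Cxcl11 averaged 643 ± 30.8 CPM with LPS+IFN-gamma and 81.1 ± 14.6 CPM with LPS (2.99 ± 0.16). Cxcl10 averaged 6712 ± 248 CPM with LPS+IFN-gamma and 1885 ± 201 CPM with LPS (1.83 ± 0.28). Per length, Cxcl9 stood at 1057 ± 95.9 FPKM with LPS+IFN-gamma and 19.5 ± 2.93 FPKM with LPS in the deposited values. Cxcl10 stood above it in both groups, at 3056 ± 111 FPKM with LPS+IFN-gamma and 859 ± 90.2 FPKM with LPS. Of the 22 other chemokines tested, 8 rose, 8 fell and 6 were not called, with a median of 0.04 (8 and 9 with totals-only scaling).

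Of these others, those that rose most were ligands for monocytes and for Ccr4. Ccl2, which attracts monocytes through Ccr2, had 3778, 3446 and 3817 CPM in the LPS+IFN-gamma libraries, against 694, 828 and 779 CPM in the LPS libraries (log2 fold change 2.26 ± 0.15, adjusted p = 1.3e-08). Ccl7, of the same cluster, averaged 1914 ± 108 CPM with LPS+IFN-gamma and 435 ± 36.8 CPM with LPS (2.14 ± 0.16). Ccl8 averaged 27.8 ± 2.45 CPM with LPS+IFN-gamma and 4.57 ± 0.755 CPM with LPS (2.6 ± 0.16). The Ccr4 ligand Ccl22 averaged 36.5 ± 4.02 CPM with LPS+IFN-gamma and 6.88 ± 1.90 CPM with LPS (2.41 ± 0.17). Those that fell most included ligands of Ccr1 and of the neutrophil receptor Cxcr2. Ccl9 had 13.3, 28 and 16.8 CPM in the LPS+IFN-gamma libraries, against 113, 118 and 113 CPM in the LPS libraries (log2 fold change -2.57 ± 0.23, adjusted p = 1.15e-06), and Ccl3 had 29.7, 35.9 and 28 CPM with LPS+IFN-gamma and 110.4, 124 and 122 CPM with LPS (-1.93 ± 0.12). Ccl6 averaged 1.90 ± 1.02 CPM with LPS+IFN-gamma and 6.38 ± 0.416 CPM with LPS (-1.74 ± 0.27). Cxcl5, a ligand of Cxcr2, averaged 57 ± 14.7 CPM with LPS+IFN-gamma and 173 ± 34.3 CPM with LPS (-1.60 ± 0.27). In each of these the libraries of the groups did not overlap, as was so for 52.3% of all genes tested.

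Of 8 chemokine receptors tested, 2 rose and 3 fell. Ccr7, which guides dendritic cells to lymph nodes, had 33, 22.6 and 25.9 CPM in the LPS+IFN-gamma libraries, against 0.496, 0.427 and 0.273 CPM in the LPS libraries (log2 fold change 6.06 ± 0.35, adjusted p = 3.54e-09). Ccrl2, a receptor that presents chemerin, averaged 65.7 ± 7.05 CPM with LPS+IFN-gamma and 14.9 ± 1.21 CPM with LPS (2.13 ± 0.15). Cx3cr1, the microglial receptor for neuronal fractalkine, averaged 20.6 ± 0.875 CPM with LPS+IFN-gamma and 52.9 ± 3.26 CPM with LPS (-1.36 ± 0.11), against 179 ± 16.7 CPM in untreated glia. Cxcr4, the receptor for Cxcl12, averaged 5.51 ± 0.523 CPM with LPS+IFN-gamma and 12.7 ± 0.513 CPM with LPS (-1.2 ± 0.30). Ccr1, at 25 ± 1.06 CPM with LPS+IFN-gamma and 20.4 ± 2.53 CPM with LPS (adjusted p = 0.162), did not pass the test.

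**Figure D3:**
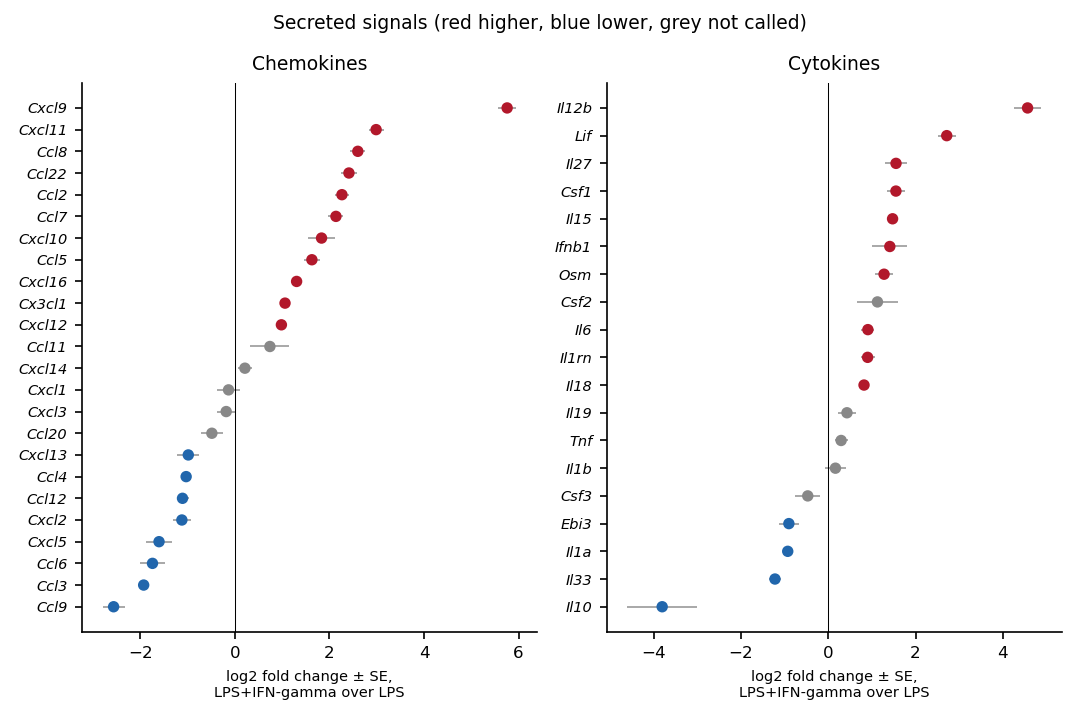
Points give the log2 fold change of LPS+IFN-gamma over LPS for chemokines (left) and cytokines (right) at 1 CPM or more, and bars give the SE. Genes called higher are red, lower blue and not called grey; Cxcl9 and Il12b stand highest, and Ccl9 and Il10 lowest.

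Among cytokines, the subunit shared by interleukins 12 and 23 rose and interleukin 10 fell. Il12b had 36.6, 38 and 41.8 CPM in the LPS+IFN-gamma libraries, against 0.936, 0.997 and 3.0 CPM in the LPS libraries (log2 fold change 4.57 ± 0.31, adjusted p = 3.95e-08). Its partner chains Il12a and Il23a had too few counts to test. Il12a had 1 count over the LPS+IFN-gamma libraries and 4 over the LPS libraries, and Il23a had 10 and 5. Il10, which restrains inflammation, had 4 counts over the 3 LPS+IFN-gamma libraries and 74 counts over the 3 LPS libraries. That is 0.0847 ± 0.0733 CPM with LPS+IFN-gamma and 1.27 ± 0.353 CPM with LPS, a log2 fold change of -3.81 ± 0.80 (adjusted p = 0.0014), at levels where few reads carry the value. Lif, of the interleukin 6 family, averaged 72.8 ± 6.89 CPM with LPS+IFN-gamma and 11.1 ± 0.478 CPM with LPS (2.72 ± 0.20). Csf1, the growth factor of microglia, averaged 2010 ± 119 CPM with LPS+IFN-gamma and 686 ± 7.45 CPM with LPS (1.55 ± 0.21). Il27 averaged 5.42 ± 0.626 CPM with LPS+IFN-gamma and 1.84 ± 0.294 CPM with LPS (1.55 ± 0.26). Its partner subunit Ebi3 averaged 6.77 ± 1.18 CPM with LPS+IFN-gamma and 12.7 ± 2.25 CPM with LPS (-0.90 ± 0.24), so the chains moved in opposite directions. Il6 rose, at 78.3 ± 13.1 CPM with LPS+IFN-gamma and 41.7 ± 5.76 CPM with LPS (0.91 ± 0.15). Tnf had 30.9, 30.4 and 24.4 CPM in the LPS+IFN-gamma libraries, against 22.7, 24.5 and 22.6 CPM in the LPS libraries, and its log2 fold change of 0.29 ± 0.15 did not pass the test (adjusted p = 0.137), though it did in a fit of the 6 libraries alone. Il1b, at 356 ± 44.7 CPM with LPS+IFN-gamma and 317 ± 16.8 CPM with LPS, did not pass it either (0.16 ± 0.25, adjusted p = 0.648), while Il1a fell, at 80.4 ± 5.01 CPM with LPS+IFN-gamma and 153 ± 8.19 CPM with LPS (-0.93 ± 0.11). Il33, an alarmin of astrocytes and oligodendrocytes, averaged 12.4 ± 0.785 CPM with LPS+IFN-gamma and 28.9 ± 1.80 CPM with LPS (-1.22 ± 0.14). In the cytokine list of 20 genes tested, 10 rose, 4 fell and 6 missed the threshold (median log2 fold change 0.86).

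Both chains of the interleukin 12 receptor rose, and the signalling chain of the interleukin 1 receptor fell. Il12rb1 had 33.9, 33.4 and 26.9 CPM in the LPS+IFN-gamma libraries, against 1.60, 1.19 and 1.15 CPM in the LPS libraries (log2 fold change 4.58 ± 0.17, adjusted p = 1.44e-11). Il12rb2, the other chain of the interleukin 12 receptor, averaged 3.32 ± 0.593 CPM with LPS+IFN-gamma and 0.228 ± 0.0896 CPM with LPS (3.83 ± 0.48). Il15ra, which presents interleukin 15, averaged 42.8 ± 0.623 CPM with LPS+IFN-gamma and 12.2 ± 1.97 CPM with LPS (1.80 ± 0.13). Il1r1, the signalling receptor of interleukin 1, had 11.9, 15.9 and 12.4 CPM in the LPS+IFN-gamma libraries, against 57.8, 62.1 and 61.1 CPM in the LPS libraries, lower in every LPS+IFN-gamma library than in untreated glia (26.1 ± 3.67 CPM) as well. Its log2 fold change against LPS was -2.17 ± 0.14 (adjusted p = 7.82e-09). Il13ra2, the decoy receptor of interleukin 13, averaged 1.52 ± 0.582 CPM with LPS+IFN-gamma and 6.12 ± 1.43 CPM with LPS (-2 ± 0.31). In the list of receptors and decoys, of 27 genes tested, 13 rose, 7 fell and 7 missed the threshold (median log2 fold change 0.36; 11 and 10 with totals-only scaling).

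Among molecules that engage T cells, both activating and inhibitory ones rose. Cd86, which gives the second signal through Cd28, had 113, 110 and 110.1 CPM in the LPS+IFN-gamma libraries, against 10.1, 12.4 and 14.2 CPM in the LPS libraries (log2 fold change 3.18 ± 0.19, adjusted p = 1.01e-08). Cd40 averaged 72 ± 2.29 CPM with LPS+IFN-gamma and 13.4 ± 0.963 CPM with LPS (2.43 ± 0.11). Cd274, the checkpoint ligand PD-L1, averaged 782 ± 111 CPM with LPS+IFN-gamma and 127 ± 4.13 CPM with LPS (2.63 ± 0.14). Cd83 averaged 24.1 ± 3.34 CPM with LPS+IFN-gamma and 4.0 ± 0.946 CPM with LPS (2.59 ± 0.22). Havcr2, the checkpoint receptor Tim-3, averaged 18.9 ± 1.07 CPM with LPS+IFN-gamma and 3.44 ± 0.402 CPM with LPS (2.45 ± 0.15). Cd48, at 4.85 ± 0.671 CPM with LPS+IFN-gamma and 11.8 ± 1.34 CPM with LPS (-1.29 ± 0.15), and the Cd30 ligand Tnfsf8, at 2.07 ± 0.375 CPM with LPS+IFN-gamma and 7.25 ± 0.560 CPM with LPS (-1.80 ± 0.31), fell. In this list of 22 genes tested, 12 rose, 3 fell and 7 missed the threshold (median log2 fold change 0.67; 10 and 6 with totals-only scaling).

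Sensors of microbial products moved in both directions. The cytosolic sensors of peptidoglycan rose, Nod1 at 204 ± 11.6 CPM with LPS+IFN-gamma and 50.7 ± 0.268 CPM with LPS (2.01 ± 0.12) and Nod2 at 15 ± 0.910 CPM with LPS+IFN-gamma and 4.70 ± 0.724 CPM with LPS (1.68 ± 0.17). Tlr2, the receptor for bacterial lipopeptides, rose, at 675 ± 79.5 CPM with LPS+IFN-gamma and 239.6 ± 5.71 CPM with LPS (1.5 ± 0.12), and its partner Tlr1 fell, at 7.69 ± 1.85 CPM with LPS+IFN-gamma and 30.5 ± 3.55 CPM with LPS (-1.99 ± 0.17). The RNA sensor Tlr7 fell, at 14.5 ± 1.84 CPM with LPS+IFN-gamma and 36.6 ± 0.978 CPM with LPS (-1.33 ± 0.10), as did the formyl peptide receptor Fpr1, at 20.8 ± 3.63 CPM with LPS+IFN-gamma and 87.3 ± 0.841 CPM with LPS (-2.07 ± 0.16), and the scavenger receptor Msr1, at 80.8 ± 10.8 CPM with LPS+IFN-gamma and 289 ± 5.87 CPM with LPS (-1.84 ± 0.24). Of 31 sensors and adaptors tested, 13 rose and 11 fell (8 and 12 with totals-only scaling). Of 7 Fc receptor genes tested, 2 rose and 5 fell (1 and 5 with totals-only scaling). Fcgr3 rose, at 85.8 ± 7.62 CPM with LPS+IFN-gamma and 59.8 ± 2.56 CPM with LPS (0.52 ± 0.11). Fcgr2b fell, at 29.1 ± 1.89 CPM with LPS+IFN-gamma and 85.3 ± 1.82 CPM with LPS (-1.55 ± 0.11). In the complement list 8 rose and 7 fell of 21 (5 and 11 with totals-only scaling). Among those that rose were the proteases C1s1 at 598 ± 19.5 CPM with LPS+IFN-gamma and 208 ± 1.36 CPM with LPS (1.52 ± 0.07) and C2 at 21.2 ± 1.19 CPM with LPS+IFN-gamma and 9.74 ± 2.77 CPM with LPS (1.12 ± 0.19). Serping1, an inhibitor of C1s1, rose as well, at 1303 ± 93.9 CPM with LPS+IFN-gamma and 345 ± 28.9 CPM with LPS (1.92 ± 0.25). The anaphylatoxin receptors C3ar1 (-0.76 ± 0.07) and C5ar1 (-0.94 ± 0.13) and the regulator Cfp (-1.12 ± 0.15) fell.

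The markers of the cultured cell types were present in both groups. The astrocyte filament Gfap averaged 3641 ± 445 CPM with LPS+IFN-gamma and 4901 ± 273 CPM with LPS, the microglial marker Aif1 37.9 ± 6.94 CPM with LPS+IFN-gamma and 51.4 ± 0.587 CPM with LPS, and Olig1, of the oligodendrocyte lineage, 78.6 ± 6.46 CPM with LPS+IFN-gamma and 242 ± 2.78 CPM with LPS. Pan-myeloid genes fell more often than they rose, and of 23 genes tested, 3 rose, 12 fell and 8 missed the threshold (median log2 fold change -0.39; 2 and 19 with totals-only scaling). Their summed level was 2843 to 3013 CPM with LPS+IFN-gamma and 3985 to 4645 CPM with LPS. Adgre1, the surface marker F4/80, had 142, 179 and 168 CPM in the LPS+IFN-gamma libraries, against 446, 406 and 438 CPM in the LPS libraries (log2 fold change -1.40 ± 0.10, adjusted p = 1.46e-08). Itgam, the integrin chain CD11b, averaged 30.6 ± 4.42 CPM with LPS+IFN-gamma and 76.4 ± 3.94 CPM with LPS (-1.32 ± 0.14). Lyz2, lysozyme, averaged 558 ± 49.4 CPM with LPS+IFN-gamma and 1346 ± 208 CPM with LPS (-1.27 ± 0.13). In the other direction, Cd68, a lysosomal protein of phagocytes, averaged 85.2 ± 7.22 CPM with LPS+IFN-gamma and 44 ± 3.29 CPM with LPS (0.96 ± 0.10). The integrin chain Itgb2 averaged 162 ± 1.56 CPM with LPS+IFN-gamma and 96 ± 5.87 CPM with LPS (0.76 ± 0.10).

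Microglial state genes moved both ways. In the homeostatic list of 19 genes tested, 3 rose, 7 fell and 9 missed the threshold (median log2 fold change -0.06; 2 and 9 with totals-only scaling). Tmem119 had 3.42, 4.56 and 4.40 CPM in the LPS+IFN-gamma libraries, against 17.1, 15 and 15.6 CPM in the LPS libraries, and 50.8 ± 11.1 CPM in untreated glia, where it was highest (log2 fold change -1.94 ± 0.18, adjusted p = 4.25e-07). Fcrls averaged 8.26 ± 1.48 CPM with LPS+IFN-gamma and 28.6 ± 1.80 CPM with LPS (-1.79 ± 0.18). Olfml3 averaged 28.3 ± 2.83 CPM with LPS+IFN-gamma and 54.1 ± 3.0 CPM with LPS (-0.93 ± 0.10). Entpd1, the ectonucleotidase CD39, rose, at 62 ± 3.73 CPM with LPS+IFN-gamma and 9.23 ± 0.601 CPM with LPS (2.75 ± 0.10), and so did Mertk, a receptor for the uptake of dying cells, at 46.1 ± 3.39 CPM with LPS+IFN-gamma and 12.9 ± 0.200 CPM with LPS (1.83 ± 0.10). For disease-associated microglia, of 22 genes tested, 9 rose, 6 fell and 7 missed the threshold (median log2 fold change 0.03; 8 and 10 with totals-only scaling). Lgals3, galectin 3, averaged 439 ± 58.4 CPM with LPS+IFN-gamma and 55.9 ± 2.23 CPM with LPS (2.97 ± 0.12). Gpnmb averaged 214 ± 2.32 CPM with LPS+IFN-gamma and 38.6 ± 3.66 CPM with LPS (2.47 ± 0.13). The integrin chain Itgax averaged 2.76 ± 0.226 CPM with LPS+IFN-gamma and 0.298 ± 0.0751 CPM with LPS (3.19 ± 0.45). Spp1, osteopontin, fell, at 109 ± 10.6 CPM with LPS+IFN-gamma and 345 ± 24.6 CPM with LPS (-1.66 ± 0.12), and so did Igf1, at 8.22 ± 2.55 CPM with LPS+IFN-gamma and 16.6 ± 0.507 CPM with LPS (-1.01 ± 0.18). The lipid receptor Trem2, at 7.41 ± 1.5 CPM with LPS+IFN-gamma and 7.21 ± 0.579 CPM with LPS, did not pass the test (0.04 ± 0.19, adjusted p = 0.903).

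Genes of the alternative, interleukin 4 driven state did not move as one list, and of 14 genes tested, 5 rose, 7 fell and 2 missed the threshold (median log2 fold change -0.25). Mrc1, the mannose receptor, had 0.258, 0.624 and 0.319 CPM in the LPS+IFN-gamma libraries, against 4.35, 4.32 and 4.21 CPM in the LPS libraries, and 31.8 ± 4.53 CPM in untreated glia (log2 fold change against LPS -3.39 ± 0.40, adjusted p = 7.62e-06). Arg1, arginase, averaged 12.6 ± 4.57 CPM with LPS+IFN-gamma and 28 ± 0.587 CPM with LPS (-1.15 ± 0.20). The transglutaminase Tgm2 averaged 698 ± 31.1 CPM with LPS+IFN-gamma and 261 ± 9.94 CPM with LPS (1.42 ± 0.07). The transcription factor Klf4 averaged 35.7 ± 7.91 CPM with LPS+IFN-gamma and 14.7 ± 1.07 CPM with LPS (1.28 ± 0.15). Of the list's other genes, 9 had too few counts to test, Retnla, Chil3, Clec10a, Mgl2 and Cd209a with 0 in both groups.

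Most tested genes of the dendritic cell list rose, and genes of lymphocytes and neutrophils were mostly near 0. Of 10 dendritic cell genes tested, 8 rose and 0 fell (6 and 1 with totals-only scaling), among them Ccr7, Irf8, Cd83 and Ccl22 above and Fscn1, an actin bundler, at 621 ± 67.7 CPM with LPS+IFN-gamma and 329 ± 3.89 CPM with LPS (0.92 ± 0.18). Their summed level, most of it Fscn1, was 888 to 1083 CPM with LPS+IFN-gamma and 426 to 430 CPM with LPS. In untreated glia it was 337 to 552 CPM. The defining genes Flt3, Clec9a and Siglech had 1, 23 and 0 counts over the LPS+IFN-gamma libraries and 4, 3 and 0 counts over the LPS libraries. Of 19 lymphocyte genes, 17 had too few counts to test, and Cd3e, Cd3g, Cd8b1, Cd2, Ncr1, Gzmb and Prf1 were at 0 in all 6 libraries. Their summed level was 9.55 to 10.5 CPM with LPS+IFN-gamma and 5.73 to 6.55 CPM with LPS, nearly all of it Lck, a kinase of T cells, at 9.48 ± 0.531 CPM with LPS+IFN-gamma and 5.21 ± 0.532 CPM with LPS (0.86 ± 0.21), which was not called with all 27 libraries in 1 fit (adjusted p = 0.0625). Of 13 neutrophil genes, 3 could be tested, and Ly6g, S100a9, Mpo, Elane, Ngp and Cxcr2 were at 0 in all 6 libraries. Their summed level was 10.6 to 11.9 CPM with LPS+IFN-gamma and 21.4 to 27.6 CPM with LPS, and Csf3r, the receptor for granulocyte colony-stimulating factor, fell, at 6.88 ± 0.521 CPM with LPS+IFN-gamma and 19 ± 2.12 CPM with LPS (-1.46 ± 0.14). The part of such cells in the results above was not tested.

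Of 27 astrocyte identity genes tested, 18 fell, 0 rose and 9 were not called (1 rose and 19 fell without the untreated library labelled replicate 1), with a median log2 fold change of -0.44 and a summed level of 10220 to 11110 CPM with LPS+IFN-gamma and 14750 to 15430 CPM with LPS. Glul, glutamine synthetase, had 185, 170.5 and 165 CPM in the LPS+IFN-gamma libraries, against 718, 686 and 714 CPM in the LPS libraries, and 1063 ± 61.4 CPM in untreated glia. The values of the groups were far apart, with a log2 fold change of -2.02 ± 0.08 (adjusted p = 3.54e-11). Aqp4, the water channel of astrocyte endfeet, had 526, 665 and 656 CPM in the LPS+IFN-gamma libraries, against 1371, 1433 and 1431 CPM in the LPS libraries (-1.2 ± 0.13, adjusted p = 2.3e-06). Ndrg2 averaged 191 ± 17.7 CPM with LPS+IFN-gamma and 462 ± 9.69 CPM with LPS (-1.27 ± 0.27). Aldoc averaged 234 ± 19.2 CPM with LPS+IFN-gamma and 391 ± 17.8 CPM with LPS (-0.74 ± 0.12), and Gfap, given above, had a log2 fold change of -0.43 ± 0.10. Genes of reactive astrocytes, which partly repeat interferon targets, went both ways, and of 34 genes tested, 15 rose, 9 fell and 10 missed the threshold (median log2 fold change 0.16; 14 and 13 with totals-only scaling). Ptgs2, cyclooxygenase 2, averaged 544 ± 155 CPM with LPS+IFN-gamma and 148 ± 17.3 CPM with LPS (1.88 ± 0.22). Sphk1, sphingosine kinase, averaged 20.1 ± 1.25 CPM with LPS+IFN-gamma and 5.28 ± 1.30 CPM with LPS (1.93 ± 0.40). Steap4, a metalloreductase, averaged 404 ± 41.3 CPM with LPS+IFN-gamma and 1098 ± 41.7 CPM with LPS (-1.44 ± 0.29). The small heat shock protein Hspb1 averaged 14.2 ± 3.15 CPM with LPS+IFN-gamma and 35.3 ± 2.63 CPM with LPS (-1.31 ± 0.23).

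Lists of other cell types held from 2 to 7 called genes each. Against 36% over all genes tested, 20% of ependymal, 36.8% of oligodendrocyte lineage, 38.5% of fibroblast, 45.5% of pericyte and smooth muscle, 46.2% of neuronal and 50% of endothelial genes were called, in lists of 10 to 19 genes. Of 19 oligodendrocyte lineage genes tested, 0 rose, 7 fell and 12 were not called (0 and 12 with totals-only scaling), with a median of -0.88 and a summed level of 785 to 877 CPM with LPS+IFN-gamma and 1219 to 1280 CPM with LPS. Olig1, given above, fell too (log2 fold change -1.62 ± 0.09, adjusted p = 1.95e-09). The tight junction protein of myelin Cldn11 averaged 5.54 ± 0.984 CPM with LPS+IFN-gamma and 30.6 ± 2.48 CPM with LPS (-2.46 ± 0.48). Pdgfra, the receptor of oligodendrocyte precursors, had 30.0, 43.3 and 37.7 CPM in the LPS+IFN-gamma libraries, against 122, 128 and 143 CPM in the LPS libraries; its groups did not overlap, but its log2 fold change of -1.82 ± 0.71 was not called (adjusted p = 0.0595). Without the untreated library labelled replicate 1, Pdgfra was called (adjusted p = 2.22e-10), and 14 of the lineage genes fell and 1 rose. Of endothelial genes 4 rose and 1 fell of 10 (3 and 3 with totals-only scaling), with a summed level of 135.3 to 158.3 CPM with LPS+IFN-gamma and 168.7 to 169.4 CPM with LPS, led by Ly6c1 at 45.8 ± 4.57 CPM with LPS+IFN-gamma and 8.89 ± 1.73 CPM with LPS (2.36 ± 0.24), a gene that monocytes also express. Of pericyte and smooth muscle genes 1 rose and 4 fell of 11 (summed level 455 to 511 CPM with LPS+IFN-gamma and 403 to 446 CPM with LPS), and of fibroblast genes 1 rose and 4 fell of 13 (1 and 9 with totals-only scaling; summed level 5653 to 7785 CPM with LPS+IFN-gamma and 7481 to 8552 CPM with LPS). Of neuronal genes 3 rose and 3 fell of 13 (summed level 400.4 to 409.8 CPM with LPS+IFN-gamma and 319 to 337 CPM with LPS), and of ependymal genes 0 rose and 2 fell of 10 (0 and 5 with totals-only scaling; summed level 271 to 305 CPM with LPS+IFN-gamma and 393 to 414 CPM with LPS). Without the untreated library labelled replicate 1, 8 ependymal and 9 fibroblast genes fell. The cell cycle list had 4 genes higher and 15 lower of 36 (1 and 24 with totals-only scaling). Ccna2, cyclin A2, fell, at 4.31 ± 1.24 CPM with LPS+IFN-gamma and 9.08 ± 0.279 CPM with LPS (-1.07 ± 0.21). Among the 4 that rose was the spindle protein Tpx2, at 117 ± 4.87 CPM with LPS+IFN-gamma and 30.2 ± 2.68 CPM with LPS (1.95 ± 0.08). The inhibitor of the cell cycle Cdkn1a, p21, rose, at 566 ± 23.6 CPM with LPS+IFN-gamma and 312 ± 12.2 CPM with LPS (0.86 ± 0.10). In its list of 10 cyclins and cell cycle inhibitors, 3 rose and 1 fell (2 and 4 with totals-only scaling). That is 40% called, against 36% over all genes tested.

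**Figure D4:**
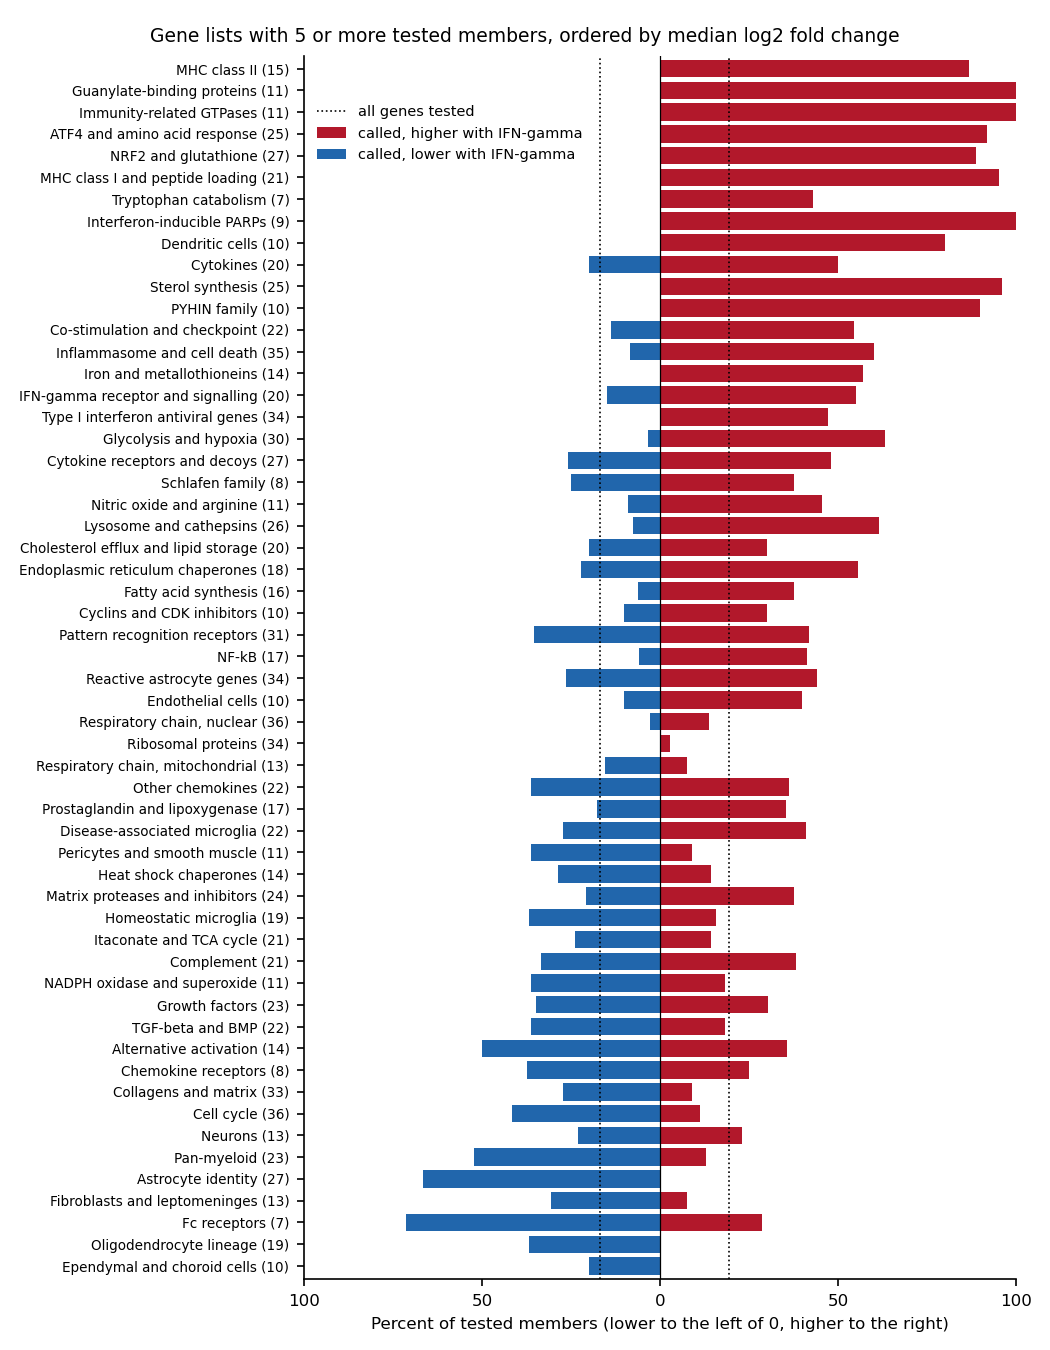
Bars give, for each gene list with 5 or more tested members (number in brackets), the percent of tested members called higher with IFN-gamma (red, to the right) and lower (blue, to the left), and dotted lines give the shares over all genes tested, 19.2% and 16.8%. Lists run by their median log2 fold change, from MHC class II and the guanylate-binding proteins at the top to oligodendrocyte and ependymal genes at the bottom.

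The inducible enzymes of nitric oxide synthesis, tryptophan breakdown and itaconate synthesis rose. Of nitric oxide and arginine genes 5 rose and 1 fell of 11 (4 and 2 with totals-only scaling), and of tryptophan genes 3 rose and 0 fell of 7 (3 and 1 with totals-only scaling). Called were 54.5% of the first list and 42.9% of the second, against 36% over all genes tested. Kmo, a further tryptophan gene, had too few counts to test, at 1 over the LPS+IFN-gamma libraries and 17 over the LPS libraries. Nos2, the inducible nitric oxide synthase, had 799, 936 and 942 CPM in the LPS+IFN-gamma libraries, against 73.2, 92.8 and 82.8 CPM in the LPS libraries, and 0.0826 ± 0.0252 CPM in untreated glia. Every LPS+IFN-gamma library was above every LPS library (log2 fold change 3.43 ± 0.15, adjusted p = 7.28e-11). The arginine transporter Slc7a1, at 101 ± 12.7 CPM with LPS+IFN-gamma and 33.3 ± 0.573 CPM with LPS (1.59 ± 0.13), Ass1, which remakes arginine from citrulline, at 369 ± 31.9 CPM with LPS+IFN-gamma and 158 ± 9.21 CPM with LPS (1.22 ± 0.28), and Gch1, which makes the cofactor tetrahydrobiopterin, at 45.5 ± 3.07 CPM with LPS+IFN-gamma and 31.3 ± 1.59 CPM with LPS (0.54 ± 0.12), rose with it. Ido1, the first enzyme of tryptophan breakdown, had 8.01, 7.74 and 6.18 CPM in the LPS+IFN-gamma libraries, against 0.220, 0.285 and 0.109 CPM in the LPS libraries (5.09 ± 0.41, adjusted p = 8.68e-08). Its relative Ido2 averaged 10.6 ± 1.52 CPM with LPS+IFN-gamma and 0.383 ± 0.305 CPM with LPS (4.71 ± 0.42). Kynu, kynureninase, averaged 3.09 ± 0.0313 CPM with LPS+IFN-gamma and 0.155 ± 0.141 CPM with LPS (4.25 ± 0.55). Acod1, which makes itaconate, averaged 575 ± 8.93 CPM with LPS+IFN-gamma and 212 ± 2.67 CPM with LPS (1.44 ± 0.11). The enzymes of the citrate cycle around it moved little: of the list of 21 with Acod1, 3 rose and 5 fell with a median of -0.06 (1 and 14 with totals-only scaling). In this list 38.1% of genes were called, against 36% over all genes tested. For glycolysis and hypoxia, of 30 genes tested, 19 rose, 1 fell and 10 missed the threshold (median log2 fold change 0.40; 11 and 3 with totals-only scaling). The list was led by the glucose transporter Slc2a1 at 311 ± 18.8 CPM with LPS+IFN-gamma and 102 ± 3.09 CPM with LPS (1.61 ± 0.10), the growth factor Vegfa at 213 ± 17.8 CPM with LPS+IFN-gamma and 87.2 ± 3.70 CPM with LPS (1.29 ± 0.12) and hexokinase Hk2 at 143 ± 7.21 CPM with LPS+IFN-gamma and 61 ± 1.81 CPM with LPS (1.23 ± 0.23).

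After MHC class II, the Cxcr3 ligands and both GTPase families, the largest medians were those of the amino acid response and antioxidant lists. Other stress lists moved less. Of 18 endoplasmic reticulum chaperones tested, 10 rose and 4 fell (median log2 fold change 0.22, and 4 and 5 with totals-only scaling). Of 14 heat shock chaperones tested, 2 rose and 4 fell (median 0.01, and 2 and 7 with totals-only scaling). Called were 77.8% and 42.9% of them, against 36% over all genes tested. For Nrf2, the regulator of the antioxidant response, of 27 genes tested, 24 rose, 0 fell and 3 missed the threshold (median log2 fold change 1.14). Hmox1, heme oxygenase 1, had 2744, 2376 and 2828 CPM in the LPS+IFN-gamma libraries, against 155, 151 and 149 CPM in the LPS libraries. In the untreated libraries it stood at 332, 130.2 and 121 CPM, highest in the one labelled replicate 1. The 3 LPS+IFN-gamma libraries lay above all others, and the log2 fold change over LPS was 4.13 ± 0.32 (adjusted p = 2.74e-07). Srxn1, sulfiredoxin, averaged 666 ± 53.9 CPM with LPS+IFN-gamma and 84.8 ± 1.5 CPM with LPS (2.97 ± 0.16). Gclm, of glutathione synthesis, averaged 494 ± 27.6 CPM with LPS+IFN-gamma and 75.3 ± 3.02 CPM with LPS (2.71 ± 0.08). The cystine transporter Slc7a11 averaged 349.9 ± 94 CPM with LPS+IFN-gamma and 60.4 ± 5.48 CPM with LPS (2.53 ± 0.17). For Atf4, which responds to amino acid shortage and stress of the endoplasmic reticulum, of 25 genes tested, 23 rose, 0 fell and 2 missed the threshold (median log2 fold change 1.26). Trib3, a pseudokinase, averaged 53 ± 5.52 CPM with LPS+IFN-gamma and 7.05 ± 1.10 CPM with LPS (2.91 ± 0.20). Asns, asparagine synthetase, averaged 155 ± 14.5 CPM with LPS+IFN-gamma and 39.3 ± 3.79 CPM with LPS (1.98 ± 0.13). Cth, which makes cysteine, averaged 25 ± 1.48 CPM with LPS+IFN-gamma and 5.57 ± 0.356 CPM with LPS (2.17 ± 0.13). The stress-induced hormone Gdf15 averaged 24.2 ± 3.42 CPM with LPS+IFN-gamma and 1.97 ± 0.321 CPM with LPS (3.61 ± 0.27). For sterol synthesis, of 25 genes tested, 24 rose, 0 fell and 1 missed the threshold (median log2 fold change 0.80). Among those that rose were Mvd at 98 ± 8.29 CPM with LPS+IFN-gamma and 30.6 ± 0.949 CPM with LPS (1.68 ± 0.10) and Insig1 at 192 ± 6.63 CPM with LPS+IFN-gamma and 83.2 ± 2.44 CPM with LPS (1.2 ± 0.29). Of 34 ribosomal protein genes 1 rose and 0 fell (median 0.10; 1 and 3 with totals-only scaling).

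Genes of cell death moved mainly upward, and of 35 genes tested, 21 rose, 3 fell and 11 missed the threshold (median log2 fold change 0.59; 18 and 8 with totals-only scaling). Mlkl, the pore protein of necroptosis, had 212, 205 and 196 CPM in the LPS+IFN-gamma libraries, against 70.4, 76.5 and 65 CPM in the LPS libraries (log2 fold change 1.53 ± 0.10, adjusted p = 1.18e-08). Pycard, the inflammasome adaptor ASC, averaged 16.9 ± 2.78 CPM with LPS+IFN-gamma and 6.08 ± 1.16 CPM with LPS (1.48 ± 0.22). Bid averaged 81.4 ± 6.36 CPM with LPS+IFN-gamma and 31 ± 0.675 CPM with LPS (1.39 ± 0.10). The survival gene Bcl2a1a averaged 11.6 ± 2.17 CPM with LPS+IFN-gamma and 25.6 ± 1.45 CPM with LPS (-1.15 ± 0.14), with near-identical copies that make its own value uncertain. Of NF-kB subunits and inhibitors 7 rose and 1 fell of 17 (4 and 5 with totals-only scaling), with Nfkbib at 86.8 ± 10.1 CPM with LPS+IFN-gamma and 32.9 ± 2.67 CPM with LPS (1.40 ± 0.10) and Tnfaip3, the deubiquitinase A20, at 168 ± 25 CPM with LPS+IFN-gamma and 80.8 ± 7.93 CPM with LPS (1.06 ± 0.11).

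Growth factors and the matrix divided as well. Gdnf, a neurotrophic factor, averaged 11.7 ± 1.30 CPM with LPS+IFN-gamma and 3.58 ± 0.735 CPM with LPS (1.70 ± 0.22). Fgf2 averaged 86.8 ± 14.9 CPM with LPS+IFN-gamma and 269 ± 10.6 CPM with LPS (-1.63 ± 0.13), in opposite directions. Igfbp5 averaged 483 ± 82.5 CPM with LPS+IFN-gamma and 1217 ± 120.4 CPM with LPS (-1.33 ± 0.19). The transforming growth factor Tgfb1 averaged 22.8 ± 3.50 CPM with LPS+IFN-gamma and 33.7 ± 1.54 CPM with LPS (-0.56 ± 0.10). Of the proteases, Mmp25 had 28, 20.3 and 25.4 CPM in the LPS+IFN-gamma libraries, against 1.10, 1.71 and 1.36 CPM in the LPS libraries (4.12 ± 0.23, adjusted p = 1.46e-09). Mmp9 averaged 3.40 ± 0.790 CPM with LPS+IFN-gamma and 9.79 ± 1.24 CPM with LPS (-1.52 ± 0.22). Of growth factors 7 rose and 8 fell of 23, and of matrix proteases and inhibitors 9 rose and 5 fell of 24. With totals-only scaling the counts were 4 and 10 for growth factors and 6 and 10 for proteases and inhibitors.

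The same IFN-gamma step was measured a second time in libraries that share no sample with the comparison above, on cultures that also received 50 nM bryostatin, a macrocyclic lactone that binds protein kinase C. There 5923 of 16073 genes were called (36.9%), 3040 higher (18.9%) and 2883 lower (17.9%). Called in both settings in the same direction were 4377 genes, which is 75.6% of the calls without bryostatin and 73.9% of those with it, and 6 genes were called in opposite directions. Of the genes that rose over 2-fold without bryostatin, 737 of 829 were called higher with it, and of those that fell over 2-fold, 731 of 976 were called lower. Across the 12041 genes at 5 CPM or more in at least 1 of the 4 groups, the log2 fold changes of the 2 steps had a Pearson r of 0.94 (0.848 over all 16073 genes tested), given as a description over genes, which are not independent replicates. Irf1 had 1203, 1179 and 1389 CPM with LPS+IFN-gamma+bryostatin and 68, 74.5 and 78.8 CPM with LPS+bryostatin, a log2 fold change of 4.09 ± 0.11 (adjusted p = 8.32e-13), and Nos2 had 1207, 1265 and 1262 CPM with LPS+IFN-gamma+bryostatin and 47.2, 78 and 64.2 CPM with LPS+bryostatin (4.30 ± 0.15). Glul had 224, 202 and 222 CPM with LPS+IFN-gamma+bryostatin and 682, 584 and 644 CPM with LPS+bryostatin (-1.56 ± 0.08). These 3 genes kept their direction, and all tested guanylate-binding proteins, immunity-related GTPases, PARP-family genes and Cxcr3 ligands rose with bryostatin too. Of MHC class II genes 12 rose and 1 fell there, of Nrf2 targets 27 rose, of Atf4 targets 24 rose, and of astrocyte identity genes 3 rose and 15 fell.

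Few genes were called for a difference in the size of the step, and genes not called may still differ. The test of the difference, with bryostatin minus without, called 19 genes (0.118% of genes tested), 11 higher (0.0684%) and 8 lower (0.0498%), with 1021 genes at an unadjusted p under 0.05 and 83 called by DESeq2. The largest was Ccl22, which had 45.6, 52.3 and 56.2 CPM with LPS+IFN-gamma+bryostatin and 0.914, 0.982 and 0.648 CPM with LPS+bryostatin, next to 41.1, 33.6 and 34.9 CPM with LPS+IFN-gamma and 5.73, 5.84 and 9.07 CPM with LPS. Its step was 5.91 ± 0.22 with bryostatin and 2.41 ± 0.17 without, a difference of 3.49 ± 0.28 (adjusted p = 2.52e-05). H2-Aa had a step of 7.57 ± 0.27 with bryostatin and 5.29 ± 0.21 without (difference 2.28 ± 0.39, adjusted p = 0.0327), and Cd74 one of 5.45 ± 0.15 and 4.26 ± 0.14 (difference 1.19 ± 0.18). Cd74 had 412, 465 and 494 CPM with LPS+IFN-gamma+bryostatin and 10.8, 11.4 and 9.19 CPM with LPS+bryostatin, next to 844, 609 and 672 CPM with LPS+IFN-gamma and 38.4, 38.9 and 33.7 CPM with LPS, so its level without IFN-gamma was the lowest where bryostatin was present. Hspa1a, an inducible heat shock protein, had a step of 0.52 ± 0.16 with bryostatin and 2.09 ± 0.15 without (difference -1.57 ± 0.22, adjusted p = 0.00808). Egr1, an immediate early gene, had -1.07 ± 0.19 and 0.71 ± 0.18, falling with bryostatin and rising without it, the second not called with totals-only scaling (difference -1.78 ± 0.26, adjusted p = 0.013).

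**Figure D5:**
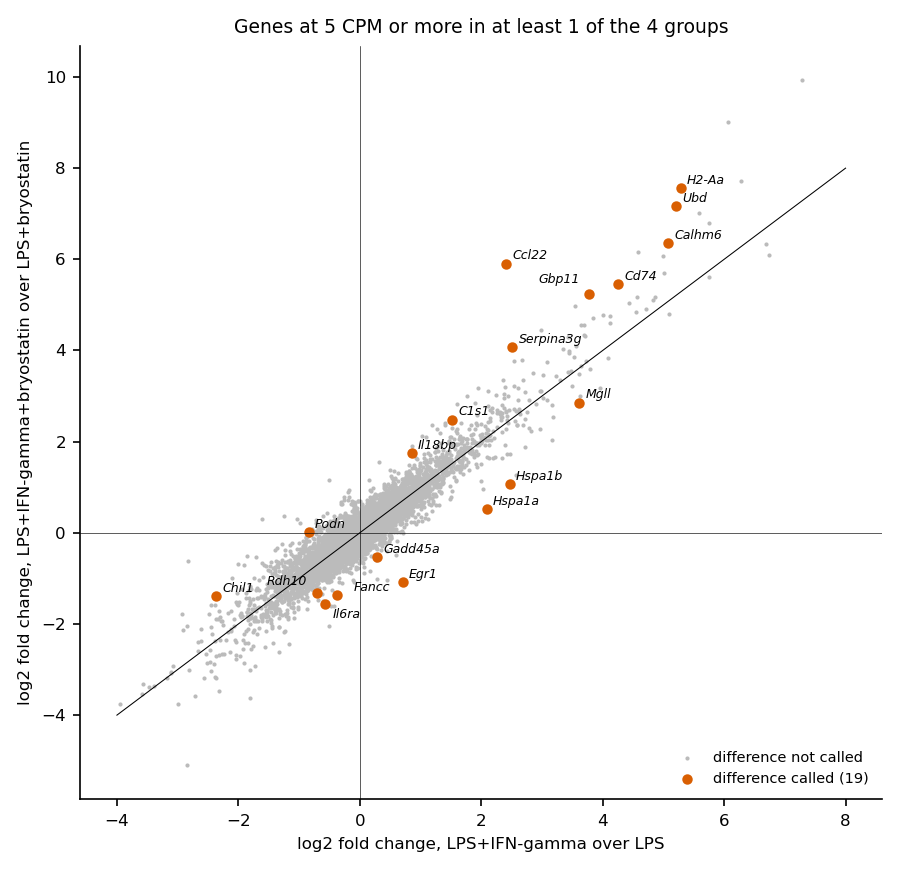
Each point is a gene at 5 CPM or more in at least 1 of the 4 groups, by its log2 fold change of LPS+IFN-gamma over LPS (horizontal) and of LPS+IFN-gamma+bryostatin over LPS+bryostatin (vertical), with the line of equal change. The 19 genes whose difference was called are orange and named; Ccl22 lies farthest above the line and Egr1 farthest below it.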

How the data were processed

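Polyadenylated RNA was sequenced without strand information, per the labels' protocols. Raw gene-level read counts were deposited, from reads trimmed with fastp, aligned with STAR to mm10 and counted with featureCounts, per the submitters' processing notes; versions and the handling of reads that match several genes are not given in the sources used here. FPKM values were deposited as well, with a scaling that is not stated, and served only to compare levels between genes.

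All 15 libraries of experiment 1 entered 1 model in edgeR 4.0.16 (R 4.3.3): low counts removed by filterByExpr, TMM scaling, robust quasi-likelihood fit with 5 groups and no covariate, and Benjamini-Hochberg adjustment over all 16073 genes tested. The contrasts were LPS+IFN-gamma minus LPS, the same step with bryostatin, and their difference. Calls used an adjusted p below 0.05, and SE is the absolute log2 fold change over the square root of F. CPM used TMM-scaled totals, and 3 counts correspond to 0.15 to 0.174 CPM in the 6 libraries. Alternatives included DESeq2 1.42.0, other scalings and left-out libraries.

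Named genes were the 12 most raised and 12 most lowered protein-coding genes at 5 CPM or more, up to 4 members each way of each list (all members of lists of at most 12), a fixed set of pathway genes, and the largest called differences. Some genes that meet this rule are not reported here. Members and lists were chosen with earlier results of these data known.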

Additional observations from a re-analysis of the deposited data

Results flagged for a closer look

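For 19 genes the IFN-gamma step differed in size between cultures with and without bryostatin, by edgeR's quasi-likelihood test of the difference itself with Benjamini-Hochberg adjustment over all genes tested. Differences are log2 values, with bryostatin minus without. The step was larger, or less negative, with bryostatin for Ccl22 (3.494), H2-Aa (2.278), Ubd (1.957), the protease inhibitor Serpina3g (1.556), Gbp11 (1.479), Calhm6 (1.281), Cd74 (1.192), the chitinase-like protein Chil1 (0.9885), C1s1 (0.9619), Il18bp, the binding protein of interleukin 18 (0.8915), and Podn, podocan (0.8506). It was smaller, or more negative, for Rdh10, of retinoic acid synthesis (-0.6188), the monoacylglycerol lipase Mgll (-0.757), the DNA damage gene Gadd45a (-0.8089), the receptor chain Il6ra (-0.9764), the DNA repair gene Fancc (-0.9851), Hspa1b (-1.395), Hspa1a (-1.573) and Egr1 (-1.782). Mgll rose in both settings, at 400.3, 377 and 398 CPM with LPS+IFN-gamma+bryostatin and 53.9, 55.1 and 53.4 CPM with LPS+bryostatin, next to 559, 515 and 552 CPM with LPS+IFN-gamma and 48.9, 40.9 and 43.2 CPM with LPS, with a step of 2.85 ± 0.10 with bryostatin and 3.61 ± 0.10 without. Chil1 fell in both, with a step of -1.38 ± 0.10 with bryostatin and -2.37 ± 0.10 without. Il6ra fell in both, with a step of -1.55 ± 0.12 with bryostatin and -0.58 ± 0.11 without. No explanation of these differences was tested.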

How the results depend on the processing

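No gene was called in opposite directions by the main setting and any alternative run, and the count of 5791 calls stayed within 1.5 times: 5783 with DESeq2 size factors, 5922 with DESeq2, 5308 with no filter on low counts, 6507 with the 6 libraries alone, 5082 with all 27 libraries and 4631 to 5239 with 1 of the 6 libraries left out. Library totals only and upper-quartile scaling were added after seeing the data. With library totals only, 7411 genes were called, 1745 higher and 5666 lower (23.5% higher, against 53.4%), with 1546 lower over 2-fold, and the median of all genes shifted by -0.24. Upper-quartile scaling gave 2425 higher and 3616 lower (40.1% higher) and a shift of -0.09. With library totals only, the uncalled log2 fold changes of Ifngr2 (-0.082), Il1b (-0.072) and Trem2 (-0.20) turned negative; Trem2 did so too with upper-quartile scaling (-0.054), without LPS replicate 3 (-0.029) and without LPS+IFN-gamma replicate 1 (-0.136), and ranged to 0.144 with the other libraries left out. Egr1 (0.47) and Gadd45a (0.05) were no longer called; Gadd45a was not called either with upper-quartile scaling, all 27 libraries in 1 fit, or any LPS library or LPS+IFN-gamma replicate 1 or 3 left out (0.194 to 0.296). For the difference of the step, DESeq2 called 83 genes, against 19.

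Replicate numbers did not pair the libraries: deviations of same-numbered LPS+IFN-gamma and LPS libraries correlated at 0.0178, -0.004 and 0.0984. With the replicate block, 5555 genes were called, 5464 of them among the 5791, the difference of the step again had 19, and H2-Aa, Rdh10, Mgll (adjusted p = 0.0619 each) and Fancc (0.0848) were not among them.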

Other observations

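Further gene groups moved beside those described above. Of 26 genes of lysosomes and cathepsins 16 rose and 2 fell (10 and 6 with totals-only scaling). Ctsc, the protease cathepsin C, averaged 955 ± 67.3 CPM with LPS+IFN-gamma and 416 ± 13.7 CPM with LPS (log2 fold change 1.2 ± 0.08, adjusted p = 1.65e-08). Of 14 iron and metallothionein genes 8 rose and 0 fell (6 and 2 with totals-only scaling). The transferrin receptor Tfrc averaged 126 ± 18.9 CPM with LPS+IFN-gamma and 43.2 ± 2.20 CPM with LPS (1.54 ± 0.30). The ferritin light chain Ftl1 averaged 1266 ± 219 CPM with LPS+IFN-gamma and 472 ± 25 CPM with LPS (1.42 ± 0.14). Of 17 prostaglandin and lipoxygenase genes 6 rose and 3 fell, with 4 and 7 under library totals only. Ptges, prostaglandin E synthase, rose, at 314 ± 23.7 CPM with LPS+IFN-gamma and 173 ± 3.91 CPM with LPS (0.86 ± 0.08), and Ptgs1, the constitutive cyclooxygenase, fell, at 1.65 ± 0.163 CPM with LPS+IFN-gamma and 3.51 ± 0.594 CPM with LPS (-1.09 ± 0.27).

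Lipid genes had a few large decreases, in lists with median log2 fold changes of 0.22 (fatty acid synthesis) and 0.24 (cholesterol efflux and lipid storage). Gpam, the first enzyme of glycerolipid synthesis, averaged 27.6 ± 4.21 CPM with LPS+IFN-gamma and 160.4 ± 10.8 CPM with LPS (-2.54 ± 0.30, adjusted p = 1.58e-05), in a list of 16 genes of fatty acid synthesis of which 6 rose and 1 fell. Ch25h, which makes 25-hydroxycholesterol, averaged 49 ± 5.08 CPM with LPS+IFN-gamma and 124 ± 3.48 CPM with LPS (-1.34 ± 0.17). Fabp7, a fatty acid binding protein of astrocytes and precursors, averaged 149 ± 14.3 CPM with LPS+IFN-gamma and 319.5 ± 7.79 CPM with LPS (-1.10 ± 0.12); of 20 genes of cholesterol efflux and lipid storage 6 rose and 4 fell. With library totals only, 2 rose and 4 fell of the first list, and 2 rose and 6 fell of the second. Without the untreated library labelled replicate 1, 7 rose and 1 fell of the first list, and 10 rose and 5 fell of the second. Of 36 nuclear genes of the respiratory chain 5 rose and 1 fell, with 2 and 11 under library totals only. Of 33 collagen and matrix genes 3 rose and 9 fell (0 and 16 with totals-only scaling), Col11a1 at 49.8 ± 9.79 CPM with LPS+IFN-gamma and 117 ± 1.59 CPM with LPS (-1.24 ± 0.13) and Col6a1 at 57.3 ± 7.88 CPM with LPS+IFN-gamma and 132 ± 5.86 CPM with LPS (-1.21 ± 0.21). Called were 43.8% of the fatty acid synthesis genes and 50% of the cholesterol efflux and lipid storage genes. Of the nuclear respiratory chain genes 16.7% were called, and of the collagen and matrix genes 36.4%, against 36% over all genes tested.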
